A study of Mus musculus with 69 samples.

Results

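EZH2 mutant mouse embryonic stem (ES) cells were compared with the embryoid bodies they formed after 4 days of differentiation. The comparison used 6 RNA-seq libraries, 3 of mutant ES cells at day 0 and 3 of mutant embryoid bodies at day 4, out of 69 samples in the series. It was chosen by its place in the design, and every gene with at least 0.5 RPKM (reads scaled to gene length and library size) in 3 or more of the 18 libraries of the table was tested, which left 14180 of 14772 genes. The series asks what the histone mark H3K27me3 does before and after cells differentiate. All cells were CJ7, an established mouse ES cell line. The labels call the mutant condition only "mutant" and the design text "EZH2-mutant", and neither the allele nor the number of clones is given there. No drug is listed for these groups. Day 0 cells were grown on a layer of mouse fibroblast feeder cells in DMEM medium with leukaemia inhibitory factor (LIF) and 20% serum. Embryoid bodies, aggregates of differentiating cells, were made in hanging drops in IMDM medium with 20% serum, and LIF is not listed for that medium. Wild-type CJ7 cells were taken through the same steps, with 3 libraries at day 0 and 3 at day 4. They served to test whether a change differed between genotypes. Their libraries, like all 18 of the table, also entered the filter and the fit behind the mutant calls.

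Polycomb repressive complex 2 (PRC2) places methyl groups on lysine 27 of histone H3 through its catalytic subunit EZH2, or through EZH1, and the mark is found at silent genes for developmental regulators. Mouse ES cells held in LIF keep Stat3 active and express the naive pluripotency factors. When LIF is withdrawn they leave that state, pass through a formative stage that resembles the early epiblast and is marked by Fgf5, Otx2 and the de novo DNA methyltransferases, and then respond to WNT, FGF and Nodal signals as a primitive streak or neural fate is taken.

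The 6 libraries held 9.38 to 23.5 M reads (M, 1e6) recovered from the RPKM steps, and the ribosomal transcript Rn45s took 4.78% to 32.2% of them, with the second library of each day the shallowest and the highest in Rn45s. Ezh2 was 23.6, 20.7 and 24.4 RPKM in the mutant ES cells and 25.2, 22 and 26.5 RPKM in the mutant embryoid bodies. These values are all from mutant libraries, so they do not check the genotype label. The 3 libraries of a day correlated at 0.952 to 0.985 (Pearson's r across genes, log2 scale). Replicates are separate samples in the labels, which do not say whether they came from separate cultures, so p-values measure only the spread between libraries. That spread was pooled within the 6 groups of all 18 libraries in the fit, including groups outside this comparison. A gene can thus pass or miss the threshold partly through the spread in those other groups.

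Over 4 days 903 of 14180 genes changed in the mutant (6.37%), 440 of them higher in embryoid bodies (3.10%) and 463 lower (3.27%), by limma on log2(RPKM + 1) with a Benjamini-Hochberg adjusted p below 0.05. Fold changes are given on that scale, as day 4 minus day 0, and understate the change of genes expressed at low levels. The 3 day 4 libraries lay wholly above or below the 3 day 0 libraries for 31.1% of all genes, so that lack of overlap alone is common here. Same-numbered libraries of the 2 days deviated together, and a fit with the library number as a block called 1808 genes (12.8%), 978 higher and 830 lower, with all 903 among them. Leaving out 1 of the 6 libraries left between 323 calls (without day 4 library 1) and 700 (without day 4 library 3), and 284 genes were called in every one of these fits. Without the second library of every group, an alternative chosen after seeing the data, 6 genes passed, among them Fos and Isg15. All 903 genes kept their direction, which was largely fixed, since the remaining libraries had also entered their calls.

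**Figure D1:**
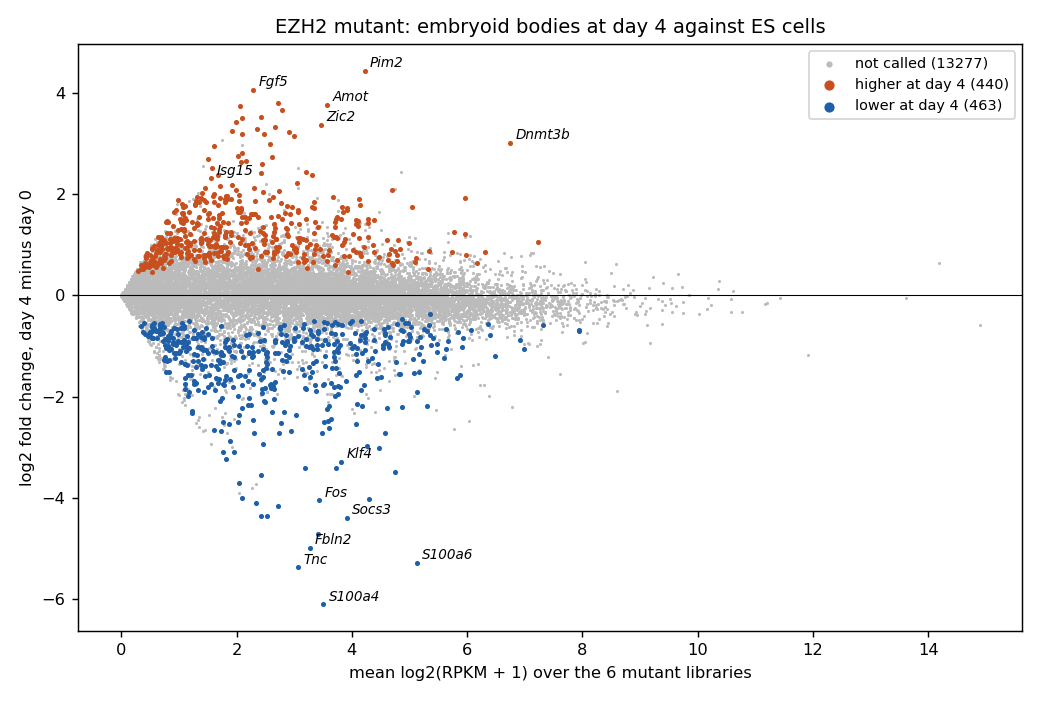
Each point is 1 of 14180 genes, with its mean log2(RPKM + 1) over the 6 mutant libraries on the horizontal axis and its log2 fold change, day 4 minus day 0, on the vertical axis. The 440 genes higher at day 4 are orange, the 463 lower are blue, and S100a4 at -6.11 and Pim2 at 4.45 lie at the extremes of the called genes.

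Part of the response to LIF fell. Of 11 genes tested for the LIF receptor, its Jak-Stat signalling and its targets, 5 fell, none rose and 6 did not pass. The median log2 fold change was -1.08 against -0.00 for all genes, of which 3.27% were called lower. All 5 falls were called in each fit that left out 1 library. Bulk RNA cannot tell fewer cells of a type from less RNA per cell, here or in the groups that follow.

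Socs3 encodes the feedback inhibitor that LIF induces through Stat3. It was 69.3, 86.5 and 52.9 RPKM in the 3 mutant ES cell libraries and 2.12, 2.39 and 2.33 RPKM in the embryoid bodies. Its lowest day 0 library was far above its highest day 4 library, and the log2 fold change was -4.40 ± 0.39 (SE, limma adjusted p = 1.97e-05). Stat3 itself, the transcription factor of the pathway, went from 41.9, 39.6 and 35.3 to 12.2, 12.7 and 11.3 RPKM (-1.61 ± 0.20, limma adjusted p = 0.000420). Both days were tight, with no library of 1 day within reach of the other. The kinase gene Pim3 (97.3, 77.4 and 76.6 against 14.9, 20.6 and 17.5 RPKM) fell by 2.19 on the log2 scale (limma adjusted p = 0.000377). Junb, a subunit of the AP-1 transcription factor, fell by 2.23 (limma adjusted p = 0.000124) and Bcl3, a regulator of NF-kappaB, by 2.47 (limma adjusted p = 0.00397).

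The Socs3 start was searched for the paired half-site that STAT proteins bind, TTCNNNGAA, since its transcript moved most among the LIF targets. The RefSeq window from 250 bases before to 50 after the transcription start (GRCm38.p6, the assembly behind mm10) held 1 match, 154 bases before the start, on the minus strand within chr11:117969502-117969531. The start is that of the window RefSeq gives, and the stretch lies inside the longer RefSeq gene span, which runs to base 117970336. The match is in capitals.
Socs3: agaaaccagccTTCTTAGAAgggagggggg
The motif was present in 8.30% of all 32851 RefSeq windows and in those of 2 of the 11 list members tested, Socs3 and Cish. The windows of Stat3, Pim3, Junb and Bcl3 held no such letters.

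Immediate early genes, which serum, growth factors and stress induce within minutes, were mostly lower. This list was written after the values had been seen, and its counts describe the data only: 15 of 27 genes tested fell, none rose and 12 did not pass, with a median of -1.08. Fos, the AP-1 partner of Jun, was 51.9, 36.9 and 41.7 RPKM at day 0 and 3.50, 0.899 and 1.21 RPKM at day 4. It had the smallest p of all named genes (-4.05 ± 0.25, limma adjusted p = 5.94e-07) and stayed past the threshold without any 1 library. Fosb went from 15.6, 6.20 and 4.00 to 0.566, 0.251 and 0.160 RPKM (-2.68 ± 0.31, limma adjusted p = 0.000289), again with no overlap. Egr1, a serum-induced zinc-finger factor, fell by 2.48 (limma adjusted p = 0.00234), Ier3 by 2.30 (limma adjusted p = 0.00245) and Gadd45b by 1.56 (limma adjusted p = 0.00171). Junb belongs to this list and to the LIF list. Jun, Nr4a1 and Klf6 passed only with the library number as a block (limma adjusted p = 0.0349, 0.00118 and 0.0189).

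The largest falls of all were in genes of fibroblasts and extracellular matrix. Among the largest called falls were S100a4, Tnc, S100a6, Fbln2, Thbs1, Socs3, Ccl2, Emp1 and Bgn. S100a6, a small calcium-binding protein, was 101, 323 and 317 RPKM in ES cell cultures and 6.66, 4.14 and 3.43 RPKM in embryoid bodies (-5.29 ± 0.63, limma adjusted p = 0.000362). Its relative S100a4 was 29.9, 133 and 199 RPKM and then 0.347, 0 and 0.890 RPKM (-6.11 ± 0.98, limma adjusted p = 0.00207). In both genes day 0 library 1 was several times lower than the other day 0 libraries, yet far above day 4. Of 33 genes tested on the feeder fibroblast and matrix list, 9 fell, none rose and 24 did not pass, with a median of -2.33, and the falls of S100a4, Fbln2, Thbs1 and Bgn were called in every fit that left out 1 library. Tnc and Emp1 lost their call without day 4 library 1, day 0 library 2 or day 0 library 3 (highest limma adjusted p = 0.0586 for Tnc and 0.0655 for Emp1). Ccl2 passed only when day 0 library 1 was left out among those 6 fits (limma adjusted p = 0.182 without day 0 library 3).

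These cultures differ in feeder cells by design, since ES cells were grown on them and embryoid bodies were not. The summed RPKM of 9 markers that define the feeder fibroblasts was 26.4, 124 and 80.4 in the day 0 libraries and 4.31, 2.77 and 2.77 in the day 4 libraries. All 9 were lower at day 4 on average, none passed the test, and Col1a2 passed with the block alone (limma adjusted p = 0.0481). Lum was at 0 in library 1 of both days, and Postn, Lum and Twist2 were at 0 in day 4 library 2. Col1a1, the main fibrillar collagen chain, was 4.71, 24.0 and 3.06 RPKM and then 0.545, 0.525 and 0.170 RPKM without passing (limma adjusted p = 0.312). Fos was highest in the day 0 library with the lowest marker sum, and Socs3 was highest in the one with the highest. How far feeder RNA took part in the falls was not tested. Eif2s3y, a Y-linked gene, was 0.494, 1.77 and 2.01 RPKM at day 0 and 0.129, 0 and 0.113 RPKM at day 4, and passed only with the block (limma adjusted p = 0.0151).

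Naive pluripotency factors were lower at day 4. All 13 naive factors tested had a negative fold change, from -3.30 to -1.17 with a median of -1.54, as had 7150 of all 14180 genes. For 12 of them the days did not overlap, against 31.1% of all genes. But 4 passed the test (Klf4, Mitf, Tbx3 and Tcl1) and 9 did not, with 3.27% of all genes called lower. Klf4, a LIF-responsive member of the naive network, was 55.9, 49.8 and 28.2 RPKM and then 1.99, 4.72 and 4.22 RPKM (-3.30 ± 0.44, limma adjusted p = 0.000756). Its call held without any 1 library. Tbx3 fell by 1.81 (limma adjusted p = 0.0199), Tcl1, a coactivator of Akt, by 2.18 (limma adjusted p = 0.0381) and Mitf by 1.64 (limma adjusted p = 0.0174), and all 3 lost their calls without day 4 library 1 (limma adjusted p = 0.106 for Tbx3, 0.2025 for Tcl1 and 0.1003 for Mitf). Tbx3 and Tcl1 also lost theirs without any 1 of the day 0 libraries, Tcl1 without day 4 library 2 and Mitf without day 4 library 2 or day 0 library 3. Tfcp2l1 passed only with the block (limma adjusted p = 0.0386).

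Esrrb, a nuclear receptor of the naive network, was 107, 98.0 and 40.4 RPKM at day 0 and still 15.9, 34.5 and 24.3 RPKM at day 4 (-1.62 ± 0.87, limma adjusted p = 0.319). Zfp42, the ES cell marker also called Rex1, was 318, 306 and 383 RPKM and then 61.4, 131 and 183 RPKM (-1.54 ± 1.0, limma adjusted p = 0.431). In both genes the days did not overlap, day 4 library 1 was the lowest, and the test was not passed. Both passed when the block was fitted on the groups of the contrast alone (limma adjusted p = 0.0341 for Esrrb and 0.0195 for Zfp42). Over the whole naive list the mean log2 level at day 4 was 2.96 in library 1, 3.82 in library 2 and 3.85 in library 3, below 5.13 to 5.34 in the ES cells.

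None of the 5 core factors passed. Pou5f1 (Oct4), needed for pluripotency in both naive and primed cells, was 389, 509 and 439 RPKM in the ES cells and 345, 447 and 389 RPKM in the embryoid bodies, with overlapping ranges (-0.18 ± 0.58, limma adjusted p = 0.920). Nanog was 87.0, 98.7 and 88.1 RPKM and then 82.3, 50.7 and 47.2 RPKM (limma adjusted p = 0.688). Sox2, the partner of Oct4, was 135, 129 and 134 RPKM and then 48.0, 110 and 123 RPKM (limma adjusted p = 0.675), with the low value in day 4 library 1. Of 9 Dppa and KHDC family genes of ES cells none passed, with a median of -0.94, and Khdc3 passed with the block (limma adjusted p = 0.02).

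Part of the formative genes rose. Of 14 tested, 6 rose (Sall2, Zic2, Fgf5, Pou3f1, Zic5 and Sox3), none fell and 8 did not pass, against 3.10% of all genes called higher. The median was 1.44, with 12 positive and 2 negative fold changes. Fgf5, the signalling factor that marks the early epiblast, was 0.241, 0.180 and 0.140 RPKM in ES cells and 40.7, 17.2 and 9.47 RPKM in embryoid bodies (4.07 ± 0.73, limma adjusted p = 0.00377). Sall2, a zinc-finger factor, rose from 1.01, 1.5 and 0.905 to 16, 17.7 and 14.5 RPKM (3.0 ± 0.37, limma adjusted p = 0.000435). Zic2, a zinc-finger factor of the epiblast and neural plate, went from 4.08, 3.67 and 0.709 to 61.3, 32.8 and 20.4 RPKM (3.37 ± 0.60, limma adjusted p = 0.00358). For these 3 genes the days were far apart and the call held without any 1 library.

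Otx2, a homeobox factor of the formative state, was 19.7, 10.5 and 8.15 RPKM and then 57.7, 48.9 and 57.6 RPKM, without overlap and without passing (2.1 ± 0.72, limma adjusted p = 0.101). It passed when only the groups compared were fitted, without the block and with it (limma adjusted p = 0.0116 and 0.00742). Pou3f1, which acts with Otx2 and Oct4, went from 3.90, 2.54 and 2.29 to 12.6, 26.4 and 14.5 RPKM (2.22 ± 0.54, limma adjusted p = 0.0225) and lost its call without day 4 library 1 or 2 or day 0 library 2 or 3 (highest limma adjusted p = 0.0983). Sox3 and Zic5 both rose by 1.79 (limma adjusted p = 0.0349 and 0.0225) and both lost their calls without day 4 library 1 (limma adjusted p = 0.126 for each), without day 4 library 2 and without day 0 library 2 or 3, with Sox3 also losing it without day 0 library 1 (highest limma adjusted p = 0.141 for Sox3). Lin28a, Lin28b and Grhl2 passed only with the block (limma adjusted p = 0.0299, 0.00225 and 0.0411).

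Both de novo DNA methyltransferases rose, the only changes among 8 DNA methylation and TET genes tested. Dnmt3b was 41.3, 29.9 and 39.4 RPKM at day 0 and 326, 327 and 265 RPKM at day 4 (3.03 ± 0.82, limma adjusted p = 0.0389). The days were well apart, but the call was lost whichever 1 of the 6 libraries was left out (limma adjusted p = 0.0727 to 0.130), and by voom on recovered reads (adjusted p = 0.0535). Dnmt3a went from 13.8, 15.6 and 7.23 to 29.9, 72.8 and 66.7 RPKM (2.08 ± 0.31, limma adjusted p = 0.00127) and kept its call in all 6 of those fits. Dnmt3l, the cofactor without catalytic activity, was 61.3, 45.7 and 161 RPKM and then 23.3, 68.6 and 77.8 RPKM, with overlap (limma adjusted p = 0.692).

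**Figure D2:**
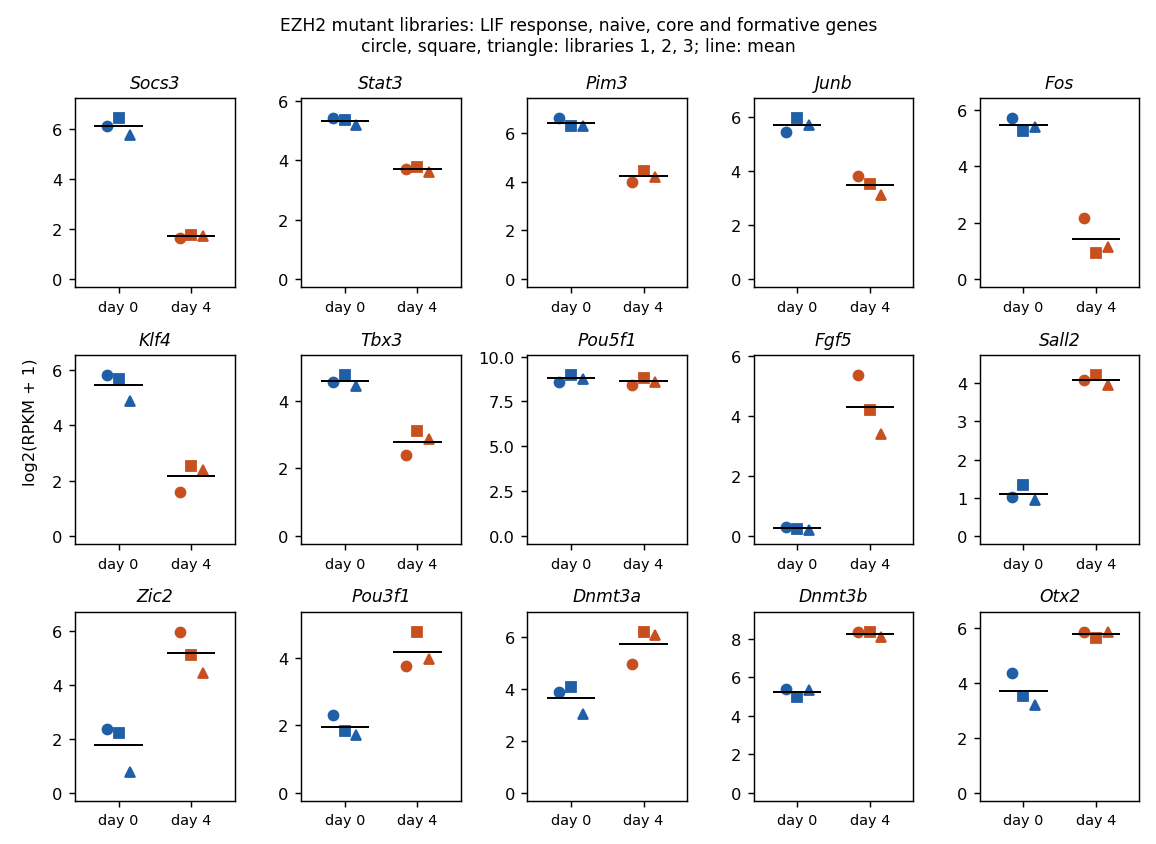
Each panel shows 1 gene as log2(RPKM + 1) in the 3 mutant ES cell libraries (day 0, blue) and the 3 mutant embryoid body libraries (day 4, orange), with symbols for libraries 1 to 3 and a line at the mean. Socs3 and Fos fall to a low level in every embryoid body library, Pou5f1 overlaps between days, and Fgf5, Sall2 and Dnmt3b are higher in every embryoid body library.

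The largest called rises were Pim2, Fgf5, Vrtn, Amot, Fgf8, Gbp2, Gbp2b, Wnt8a, Enpp2 and Zic2. Pim2, a serine/threonine kinase gene on the X chromosome and a relative of Pim3, was 4.09, 3.66 and 1.70 RPKM at day 0 and 145, 107 and 41.2 RPKM at day 4 (4.45 ± 0.91, limma adjusted p = 0.00904), and lost its call without day 4 library 1 (limma adjusted p = 0.0540). Within the Pim family, Pim2 rose and Pim3 fell. Amot, which binds the Hippo effector YAP at cell junctions, went from 1.8, 2.35 and 2.51 to 88.5, 27 and 32.6 RPKM (3.77 ± 0.54, limma adjusted p = 0.00101). Vrtn, a gene named for its link to vertebra number, rose by 3.80 (limma adjusted p = 0.00210) and Enpp2, which encodes the secreted enzyme autotaxin, by 3.44 (limma adjusted p = 0.00390). Amot, Vrtn and Enpp2 kept their calls without any 1 library.

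Some ligands of the epiblast and streak rose as well. In the WNT list 5 of 18 genes tested rose and 2 fell, against 3.10% and 3.27% of all genes. The list median was 0.84, and Tcf7 and Tcf7l1 passed with the block (limma adjusted p = 0.0237 and 0.0355). Wnt3, the ligand needed to start the streak, was 0.0595, 0.145 and 0.0876 RPKM and then 26.4, 5.57 and 2.37 RPKM (2.95 ± 0.67, limma adjusted p = 0.0163). Wnt8a, a ligand of the streak, was 0.275, 0.296 and 0.231 RPKM and then 57.7, 9.81 and 3.83 RPKM (3.52 ± 0.75, limma adjusted p = 0.0115). For both ligands day 4 library 1 was highest and library 3 lowest, and both lost the call without day 4 library 1 (limma adjusted p = 0.0855 for Wnt3 and 0.0543 for Wnt8a), Wnt3 also without day 0 library 2 or 3. Fzd7, a WNT receptor, rose from 23, 21.3 and 15.5 to 31.6, 46.7 and 37.7 RPKM (0.92 ± 0.16, limma adjusted p = 0.00328), and Sfrp1, a secreted WNT antagonist, fell from 13.2, 17.6 and 13.5 to 4.48, 5.76 and 4.52 RPKM (-1.41 ± 0.24, limma adjusted p = 0.00273). Both calls held without any 1 library. Lef1 and Axin2, a nuclear partner and a target of beta-catenin, rose by 1.97 and 1.85 (limma adjusted p = 0.0106 and 0.0403), and Wnt3a fell by 0.55 (limma adjusted p = 0.0404). Lef1 lost its call without day 4 library 1 or day 0 library 3 (highest limma adjusted p = 0.0640), Axin2 in all but the fit without day 4 library 3 (highest limma adjusted p = 0.212) and Wnt3a in all but the fit without day 0 library 1 (highest limma adjusted p = 0.186).

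In the FGF list 3 of 18 genes rose (Fgf5, Dusp4 and Fgf8), against 3.10% of all genes, and none fell. With the block 6 rose, adding Fgf15, Fgfr1 and Spry2 (limma adjusted p = 0.0247, 0.0167 and 0.0230). Fgf8, which moves cells through the streak, was 0.246, 0.137 and 0.0295 RPKM and then 81.5, 12 and 2.30 RPKM (3.75 ± 0.89, limma adjusted p = 0.0209). Its day 4 libraries spread widely, and its call held only in the fit without day 4 library 3 among the 6 that left 1 out (limma adjusted p = 0.101 without day 4 library 1). Dusp4, a phosphatase that ERK induces and that acts back on ERK, rose from 7.72, 11.5 and 5.68 to 19.4, 21.9 and 15.8 RPKM (1.14 ± 0.24, limma adjusted p = 0.00992), and lost its call without day 0 library 3 (limma adjusted p = 0.0556). Nodal, the ligand of the streak and endoderm, was 30.2, 32.6 and 39.1 RPKM and then 58.7, 44.0 and 39.4 RPKM (limma adjusted p = 0.674), and Lefty1 and Lefty2, its secreted inhibitors, overlapped between days (limma adjusted p = 0.896 and 0.859). No BMP gene of 14 and no retinoic acid gene of 12 passed.

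Transcription factors of the primitive streak were high in 1 of the 3 embryoid body libraries. T (Brachyury) was 0.204, 0.176 and 0.0762 RPKM in the ES cells and 95, 2.98 and 1.40 RPKM in the embryoid bodies (3.08 ± 1.14, limma adjusted p = 0.130). Mixl1 was 37.4 RPKM in day 4 library 1 and 1.18 and 0.529 RPKM in the other day 4 libraries, and Gsc was 39.5, 2.54 and 0.929 RPKM. Lhx1 was 26.6, 0.424 and 0.233 RPKM and Mesp1, which marks nascent mesoderm, 10.7, 0.126 and 0.113 RPKM. In each of these genes day 4 library 1 stood far above the other 2.

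Of 16 streak genes tested, 11 were highest in day 4 library 1 among the 6 libraries, against 24.7% of all genes tested, and 10 were at least 1 RPKM there and at least 5 times the next day 4 library, against 0.472% of all genes. The list had a median log2 fold change of 1.46, with 2 genes called higher (Wnt3 and Fgf8), 1 lower (Cdx1) and 13 not called. Cdx1, a caudal homeobox gene, kept its call only without day 0 library 1 among the 6 fits (highest limma adjusted p = 0.176). Eomes, a T-box factor of the streak and definitive endoderm, was 2.26, 2.59 and 2.61 RPKM and then 77.9, 13.1 and 6.16 RPKM. Its days did not overlap, and it missed the threshold (2.52 ± 0.78, limma adjusted p = 0.0691). Without day 4 library 1 the log2 fold change of T was 1.43 and that of Eomes 1.53 (limma adjusted p = 0.550 and 0.333), and Eomes passed without day 4 library 3 (3.26, limma adjusted p = 0.0307). The mean log2 level of the list was 3.72 in day 4 library 1 and 1.51 and 0.95 in libraries 2 and 3, against 0.59 to 0.79 in the ES cells.

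**Figure D3:**
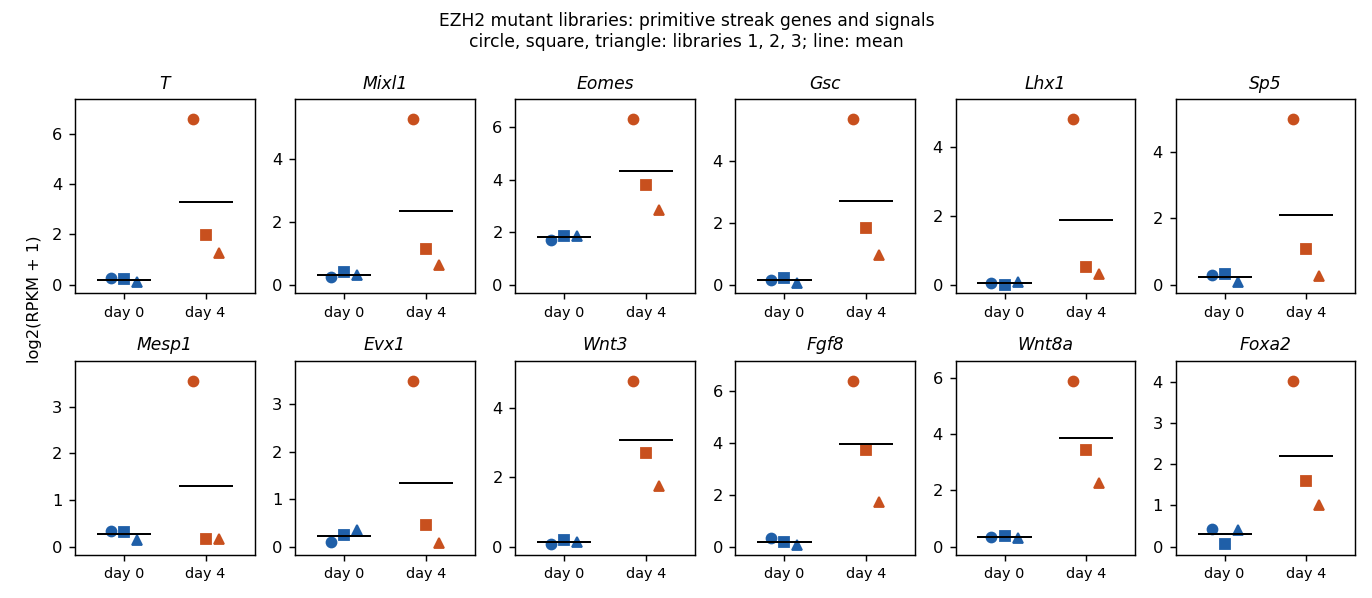
Each panel shows 1 gene as log2(RPKM + 1) in the mutant ES cell (day 0, blue) and embryoid body (day 4, orange) libraries, with symbols for libraries 1 to 3 and a line at the mean. T, Mixl1, Gsc, Lhx1, Sp5, Mesp1 and Evx1 are high in day 4 library 1 alone, while Wnt3, Fgf8 and Wnt8a are above the ES cells in all 3 embryoid body libraries.

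Lists of later lineages held 0 or 1 call each, and with 6.37% of all genes called these counts are near the background. None of 10 endoderm regulators passed, and Sox17 was 2.03, 0.0662 and 0.325 RPKM at day 4, with Gata4 at 7.08, 4.17 and 4.04 RPKM and Gata6 at 4.99, 0.339 and 1.33 RPKM. Foxa2, a forkhead factor of endoderm and node, was 0.352, 0.038 and 0.312 RPKM in ES cells and 15.2, 2.00 and 1.02 RPKM in embryoid bodies, without passing (1.91 ± 0.58, limma adjusted p = 0.0652). Cer1, a secreted Nodal and WNT antagonist, was 8.58, 0 and 0.116 RPKM at day 4. Of 17 visceral endoderm genes 1 rose (Amot), of 16 early mesoderm and cardiac regulators 1 fell (Meox1), of 10 neural genes 1 rose (Zic1), and none of 12 sarcomere genes and 15 blood and endothelium genes passed. With the block Nkx2-5 and Lmo2 passed (limma adjusted p = 0.0411 and 0.0490), both higher. Zic1 was 0.0554, 0.134 and 0.0465 RPKM and then 3.02, 0.890 and 0.784 RPKM (limma adjusted p = 0.0247), and lost its call without day 4 library 1 or any 1 of the day 0 libraries (highest limma adjusted p = 0.123). Meox1 lost its call without day 4 library 1 or day 0 library 2 or 3 (highest limma adjusted p = 0.0820). Pax6, the neural homeobox factor, stayed at or below 1.61 RPKM in all 6 libraries (limma adjusted p = 0.490). Only 10 of 34 Hox genes reached the level needed for a test, and none passed.

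Among Polycomb genes themselves none passed. The list of 12 PRC2 subunits had a median of -0.08 and that of 20 PRC1 subunits 0.31. Suz12, a core PRC2 subunit, was 84.7, 75.7 and 143 RPKM and then 60.6, 80.2 and 167 RPKM (limma adjusted p = 0.972). Eed, the subunit that reads the mark, was 63.0, 75.0 and 164 RPKM and then 37.2, 53.7 and 85.9 RPKM, and passed with the block (limma adjusted p = 0.0399 against 0.354 without it). Ezh1, the second methyltransferase of the family, was 19.4, 13.7 and 10.5 RPKM and then 11.2, 12.6 and 12.9 RPKM (limma adjusted p = 0.799). Jarid2, an accessory PRC2 subunit, had a limma adjusted p of 0.908. In the PRC1 list Cbx2, Yaf2, Kdm2b and Bcor passed with the block (limma adjusted p = 0.0376, 0.0405, 0.0194 and 0.0207), all with positive fold changes, and Cbx7 overlapped between days at 41.6, 44.3 and 31.2 against 33.7, 50.5 and 43.1 RPKM. Cdkn2a, the INK4 locus gene that Polycomb holds down in many cells, was 9.39, 15.2 and 8.51 RPKM and then 12, 16.9 and 8.07 RPKM (limma adjusted p = 0.904), and none of 7 cell cycle inhibitors passed, Cdkn1c included (limma adjusted p = 0.884).

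Genes the authors mark as PRC2 targets were called in both directions, and the shares that follow were not compared by a test. Of 4091 tested genes with the authors' deposited target call, 219 rose (5.35%) and 196 fell (4.79%). Of 9303 genes marked as no target, 182 rose (1.96%) and 237 fell (2.55%). The median log2 fold change was 0.02 for targets and -0.02 for the rest. Targets were also expressed at lower levels, with a median day 0 mean of 2.75 RPKM against 11.3 RPKM. A transcription start within 1 kb of a wild-type H3K27me3 peak (peaks merged over stages by the authors) held for 2604 tested genes, with 156 higher (5.99%) and 119 lower (4.57%). Fgf5, Vrtn, Sall2, Zic5, Wnt3 and Dnmt3a among the genes that rose had such a peak at their start, and so had Socs3, Klf4, Tnc, S100a6 and Fbln2 among those that fell. Pim2 and Amot had none, nor did Isg15, which the authors mark as a target.

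Suz12 CUT&RUN peaks of the mutant cells were set beside the same calls. CUT&RUN cuts and sequences the DNA next to an antibody-bound protein. Peaks were called per library, 5651 and 7284 in the 2 ES cell libraries and 5963 and 8810 in the 2 day 4 libraries. The gene span lay within 1 kb of a peak in both ES cell libraries for 529 tested genes, of which 19 rose (3.59%) and 9 fell (1.70%), and in both day 4 libraries for 922, of which 29 rose (3.15%) and 38 fell (4.12%). Over all genes the shares were 3.10% and 3.27%, and the difference was not tested. Libraries of a stage agreed only in part. Taken singly, the ES cell libraries marked 1929 and 1596 tested genes, of which 3.21% and 1.25% fell. The single day 4 libraries marked 2145 and 2863. Starts within 1 kb of a peak in both libraries of a stage numbered 28 in ES cells and 16 at day 4, too few to describe further.

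Some genes crossed a low level. A total of 63 genes were below 0.5 RPKM in every mutant ES cell library and at least 1 RPKM in every embryoid body library (107 without day 4 library 3). By the same levels 73 genes were lost (135 without day 0 library 1). Of these, 47 were called higher and 43 lower, counts that the choice by level largely fixes. The lost genes included Ccl2, Bgn, Postn, Mmp3, Lox, Col5a2, Col3a1, Col6a1 and Col6a3 of the feeder and matrix list. The markers listed for feeders summed to 26.4 to 124 RPKM at day 0 and 2.77 to 4.31 RPKM at day 4. The part of feeder RNA in these losses was not tested. Among the gained genes, Fgf5, Fgf8, Wnt8a and Enpp2 were joined by Sema6a, a membrane semaphorin (0.397, 0.235 and 0.0791 against 22.7, 10.3 and 5.03 RPKM, limma adjusted p = 0.00149). Kcnj3, a potassium channel subunit, went from 0.338, 0.484 and 0.426 to 14.7, 10.6 and 11 RPKM (limma adjusted p = 0.00358). Magel2, an imprinted gene of the Prader-Willi region, went from 0.149, 0.116 and 0.0585 to 13.8, 6.28 and 2.49 RPKM (limma adjusted p = 0.00403). Rxrg, a retinoid receptor gene, reached 3.69, 3.15 and 2.27 RPKM (limma adjusted p = 0.000824). Sema6a, Kcnj3, Magel2 and Rxrg were singled out after their values were seen, and kept their calls without any 1 library.

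Part of the interferon-inducible genes and of the antigen-processing machinery rose. Both lists were written after their values had been seen, so their counts describe the data only. Of 38 interferon-inducible genes tested, 12 rose, 2 fell (Xaf1 and Ifitm2) and 24 did not pass, with a median of 0.71. With the block Gbp7, Ifit1 and Irf1 also passed as higher and Irf9 as lower (limma adjusted p = 0.0365, 0.0232, 0.0447 and 0.0359). Of 19 genes for antigen processing and MHC class I, 10 rose, none fell and 9 did not pass, with a median of 1.09, and with the block Psmb9 passed as higher and Calr as lower (limma adjusted p = 0.0471 and 0.0307). The calls of Isg15, Trim21, Gbp2, Parp10, Igtp and Irgm2 and of Tapbpl, H2-Q4, Psmb8 and Erap1 held without any 1 library. Xaf1 lost its call without day 4 library 1 or day 0 library 3 (highest limma adjusted p = 0.0849) and Ifitm2 whichever library was left out (highest limma adjusted p = 0.169).

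Stretches before the starts of genes that rose are shown because they carry 2 copies of GAAA with 2 bases between them (or the same on the other strand), the core of the element that interferon regulatory factors bind, in capitals. For Isg15 all 250 bases before the start are given (minus strand, chr4:156200819-156201068), with 3 overlapping matches 78, 72 and 66 bases before it. The other windows are plus strand, Gbp2 at chr3:142620584-142620633, Gbp2b at chr3:142594690-142594739, Irgm2 at chr11:58214893-58214942 and Igtp at chr11:58199502-58199551. In Irgm2 and Igtp the STAT motif TTCNNNGAA precedes it and is also in capitals.
Isg15: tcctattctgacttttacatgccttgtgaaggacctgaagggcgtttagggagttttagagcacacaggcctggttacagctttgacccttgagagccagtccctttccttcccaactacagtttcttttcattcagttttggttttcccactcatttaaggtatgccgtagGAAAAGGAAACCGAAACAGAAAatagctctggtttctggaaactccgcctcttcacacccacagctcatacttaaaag
Gbp2: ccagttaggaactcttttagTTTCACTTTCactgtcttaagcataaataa
Gbp2b: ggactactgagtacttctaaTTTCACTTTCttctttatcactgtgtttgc
Irgm2: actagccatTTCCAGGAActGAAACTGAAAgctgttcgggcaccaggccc
Igtp: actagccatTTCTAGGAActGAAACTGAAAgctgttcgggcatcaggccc
The Irgm2 and Igtp windows differ at 2 of 50 bases, and reads of such close relatives, like those of Gbp2 and Gbp2b, may have been split between them. Counted on both strands, this pair of GAAA repeats was in 3.44% of all 32851 windows, in 19 of 30 interferon-inducible genes tested that have a window, and in 6 of the 9 of those that rose. Among all called genes with a window it was in 16 of 321 that rose (4.98%) and in 12 of 345 that fell (3.48%).

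Isg15, a ubiquitin-like protein of the antiviral response, was 0.184, 0.357 and 0.412 RPKM in mutant ES cells and 4.89, 6.63 and 5.29 RPKM in the embryoid bodies (2.32 ± 0.34, limma adjusted p = 0.00122). Gbp2, a guanylate-binding GTPase, went from 1.25, 0.697 and 0.873 to 34.3, 16.6 and 23.1 RPKM (3.68 ± 0.60, limma adjusted p = 0.00210). Both moved in every library without overlap. Gbp2b rose by 3.53 (limma adjusted p = 0.00955) but not without day 4 library 1 (limma adjusted p = 0.0521). The immunity-related GTPases Igtp (1.6, 0.490 and 0.462 against 8.42, 5.69 and 7.41 RPKM) and Irgm2 (0.330, 0.384 and 0.122 against 5.34, 3.82 and 2.80 RPKM) rose by 2.18 and 1.94 (limma adjusted p = 0.00377 and 0.00533).

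Psmb8, a catalytic subunit of the immunoproteasome, which cuts peptides for presentation, was 0.834, 0.295 and 0.796 RPKM and then 20.6, 15.4 and 10.5 RPKM (3.30 ± 0.62, limma adjusted p = 0.00502). Erap1, which trims those peptides, went from 1.01, 1.19 and 1.78 to 13.1, 9.77 and 11.4 RPKM (2.42 ± 0.48, limma adjusted p = 0.00747). Tapbp, which loads them, went from 8.63, 7.86 and 5.58 to 37.1, 29.3 and 16.7 RPKM (1.73 ± 0.34, limma adjusted p = 0.00768). The MHC class I chain H2-K1 rose from 21.6, 26.4 and 16.6 to 38.5, 49.9 and 45.5 RPKM (1.03 ± 0.24, limma adjusted p = 0.0173). Tapbp lost its call without day 4 library 1 (limma adjusted p = 0.0528) and H2-K1 without day 4 library 2 or day 0 library 3 (limma adjusted p = 0.0716 and 0.0901). B2m, the invariant chain, overlapped between days (limma adjusted p = 0.803).

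**Figure D4:**
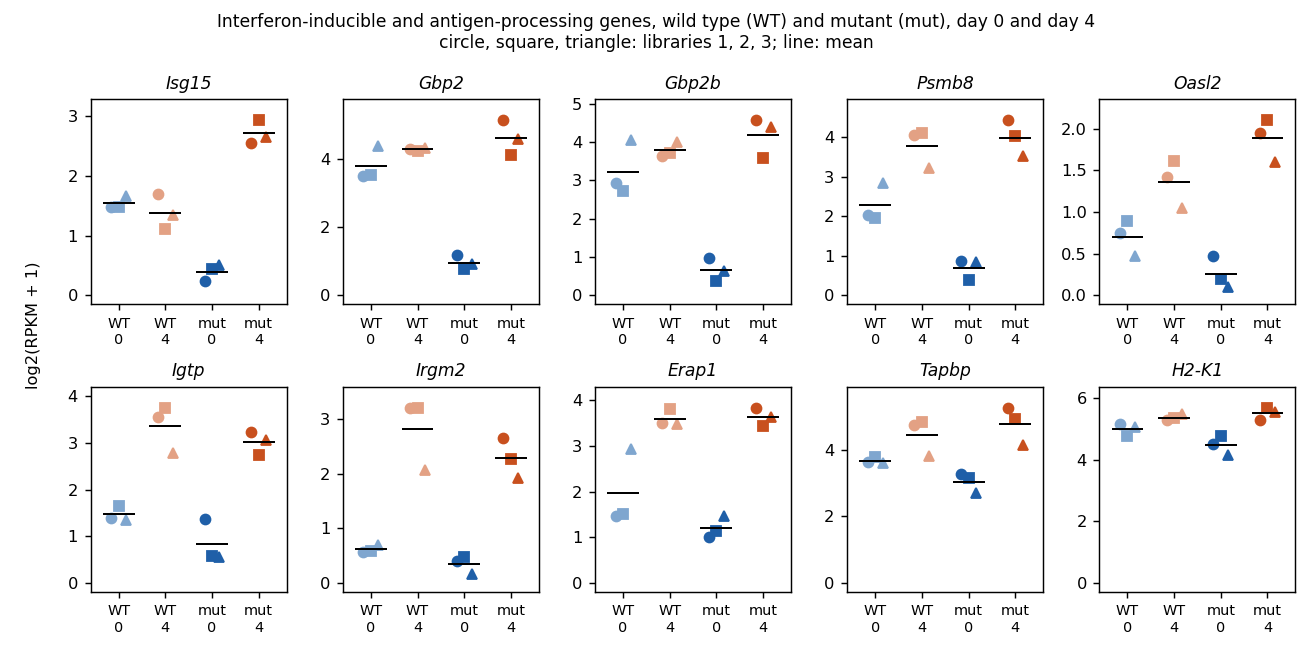
Each panel shows 1 gene as log2(RPKM + 1) in wild-type (WT, pale) and mutant (mut, dark) libraries at day 0 (blue) and day 4 (orange), with symbols for libraries 1 to 3 and a line at the mean. Isg15, Gbp2 and Gbp2b are lowest in the mutant ES cells, and all 10 genes are higher at day 4 than at day 0 in every mutant library.

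In wild-type cells Isg15 was 1.79, 1.78 and 2.17 RPKM at day 0 and 2.26, 1.16 and 1.54 RPKM at day 4, and Gbp2 was 10.3, 10.6 and 19.7 RPKM and then 18.7, 18 and 19.3 RPKM. The change of the mutant minus that of the wild type was tested as an interaction. It passed for no gene (0% called) by limma, by limma with the block or by voom on recovered reads. By limma 276 of 14180 genes were at an unadjusted p below 0.05, fewer than evenly spread p-values would give. The smallest adjusted p was that of Gm15290, a predicted gene named after its value was seen, at 0.0505 by limma (-1.11 ± 0.16) and 0.156 with the block. Among genes that are not predicted, Isg15 (2.47 ± 0.48), Trim36 (1.65 ± 0.32) and Ceacam20 (-0.98 ± 0.19) had limma adjusted p-values of 0.391. Adam19 (2.39 ± 0.54) and Neat1 (1.29 ± 0.29) followed at 1. Adam19, a membrane protease gene, was 17.7, 20.9 and 14.1 RPKM in mutant ES cells and 23.6, 23.9 and 21.8 RPKM in mutant embryoid bodies, and in the wild type 35.1, 44.4 and 27.7 and then 5.70, 4.29 and 19.7 RPKM. Neat1, the long noncoding RNA of paraspeckles, fell in the mutant from 5.63, 4.96 and 5.72 to 3.10, 2.13 and 1.56 RPKM (limma adjusted p = 0.00955).

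Genes of mitochondrial fatty acid oxidation, a list also written after the values had been seen, were lower at day 4 in 7 of 20 genes tested and higher in 1, with 12 not called and a median of -0.46. Slc25a20, the carnitine carrier of the inner membrane, went from 21.1, 24.0 and 33.5 to 8.10, 11.5 and 14.9 RPKM (-1.13 ± 0.21, limma adjusted p = 0.00479). Acads, the short-chain dehydrogenase, was 35.8, 39.4 and 42.9 RPKM and then 19, 23 and 19.9 RPKM (-0.90 ± 0.16, limma adjusted p = 0.00304). The long-chain enzyme gene Acadl moved the other way, from 5.07, 5.18 and 5.48 to 20.7, 14.4 and 13.8 RPKM (1.45 ± 0.24, limma adjusted p = 0.00218). All 3 calls held without any 1 library. In the glycolysis and hypoxia list 3 of 28 genes fell (Ankrd37, P4ha1 and Hk2), none rose, and the median was -0.48. Hk2, the hexokinase that starts glycolysis, went from 97.7, 87.0 and 70.9 to 38.3, 47.5 and 39.0 RPKM (limma adjusted p = 0.0209), and lost its call without day 4 library 1 or 3 or day 0 library 1 or 2 (highest limma adjusted p = 0.0970). P4ha1 lost its call without day 4 library 1 or 2 (highest limma adjusted p = 0.0564).

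**Figure D5:**
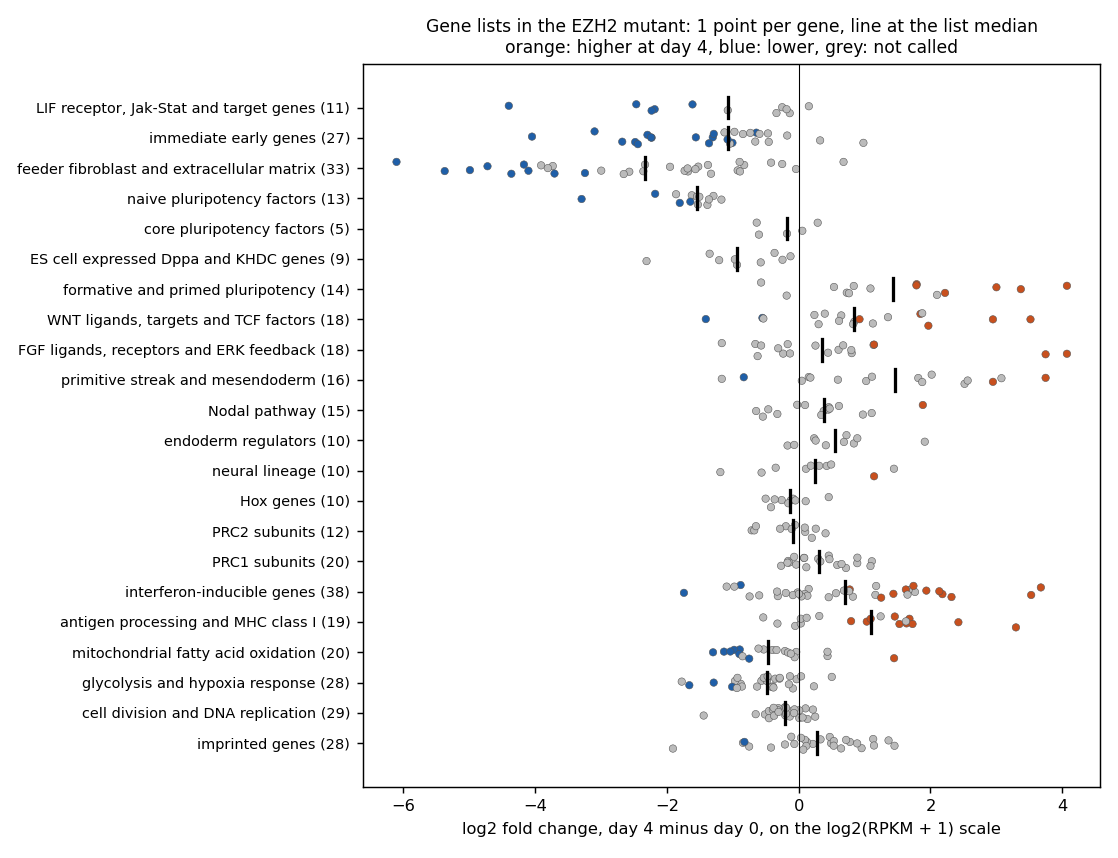
Each point is 1 gene of the list named on the left, with the number tested in brackets, at its log2 fold change, day 4 minus day 0, in the EZH2 mutant. Orange points are called higher, blue points lower and grey points not called, and the black line marks the median, which is -1.54 for naive and 1.44 for formative pluripotency genes.

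The other lists also held counts near the shares of all genes, 3.10% higher and 3.27% lower. None of 29 cell division and DNA replication genes passed (median -0.20), with Ccnd3, a D-type cyclin, passing with the block (limma adjusted p = 0.000543), and of 16 p53 target genes 1 rose, Zmat3 (limma adjusted p = 0.0472), and Sesn2 and Ei24 passed with the block (limma adjusted p = 0.0468 and 0.0403). None of 16 genes of the cadherin and epithelial to mesenchymal switch list passed. Cdh1, the epithelial cadherin, was 119, 88.5 and 52.9 RPKM and then 157, 149 and 118 RPKM with overlap, and Cdh2, its mesenchymal counterpart, was 0.536, 2.21 and 1.11 RPKM and then 12.8, 2.80 and 1.95 RPKM (limma adjusted p = 0.255). Of 28 imprinted genes 1 fell, Slc22a18, while 5 others (Rian, Snrpn, Nnat, Impact and Gnas) passed with the block, all with positive fold changes. Of 19 germline genes 1 fell, Rhox5, and of 13 trophoblast genes 1 fell, Tead4, while Tdrkh and Krt18 of these lists passed with the block (limma adjusted p = 0.0388 and 0.00423). Slc22a18, Tead4 and Zmat3 lost their calls whichever of the 6 libraries was left out, and Rhox5 did without day 4 library 1 or 2 or day 0 library 1 or 3 (highest limma adjusted p = 0.118). Xist, the RNA of X inactivation, was 2.69, 0.975 and 2.42 RPKM and then 1.74, 0.998 and 1.33 RPKM (limma adjusted p = 0.555).

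Among microRNA genes, 2 neighbours of an X-linked cluster passed with the block, out of 6 tested from this cluster and its relatives. This list too was written after its values had been seen, so its counts describe the data only. None of the 6 passed without the block, and with it 6.90% of all genes were called higher. On the earlier microRNA list, with 7 genes tested, none passed and Mir363 alone did with the block. Mir92-2 was 0.509, 0 and 1.28 RPKM at day 0 and 6.34, 13.4 and 15.1 RPKM at day 4, and Mir363 was 3.09, 4.80 and 5.71 RPKM and then 15.4, 32.5 and 15.1 RPKM. Neither passed without the block (limma adjusted p = 0.0678 and 0.112) and both did with it (0.00704 and 0.0381). These values are for the hairpin genes and do not measure the mature RNA. The mature RNAs, from the minus strand at chrX:52741854-52741874 and chrX:52741697-52741718 (RefSeq, GRCm38.p6), are shown because they share a seed, bases 2 to 8, given in capitals.
mmu-miR-92a-3p: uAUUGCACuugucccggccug
mmu-miR-363-3p: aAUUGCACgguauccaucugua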

How the data were processed

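RNA-seq values are RPKM, per the file headers. The submitters' processing notes name STAR 2.5.3, featureCounts 1.6.1, edgeR and the mm10 build, and Bowtie2 2.3.4.3 with HOMER 4.10.3, whose CUT&RUN peaks the authors deposited. Strand use in counting was not found in the labels. Reads were recovered by dividing RPKM times gene length, from the authors' other deposited tables (138 genes without one), by the step of each library, and 100% of values were within 0.02 of a whole read. The number of per-sample columns left aside was 0.

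All 18 libraries in 6 groups entered 1 fit of log2(RPKM + 1) with limma 3.58.1 (lmFit, contrasts.fit, eBayes with trend) in R 4.3.3, and p-values were adjusted with Benjamini-Hochberg over 14180 genes. The scripts were tested on simulated data. Deviations of same-numbered mutant libraries from their group means correlated at 0.34, 0.51 and 0.74 (differently numbered ones at -0.61 to 0.30, the highest close to the lowest same-numbered value), so the numbers were taken to pair the days from the data, not the labels. The authors' deposited table of log2 fold changes and adjusted p-values holds 1043 genes higher and 804 lower at its own adjusted p below 0.05, and 640 of the 903 genes are among them.

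Named genes are the 10 largest called rises and falls without overlap whose higher day averaged at least 1 RPKM (no predicted, RIKEN, LOC or histone genes), up to 4 members of each list with the smallest p, the 5 smallest p of the interaction under the same exclusions and at least 1 RPKM in 1 group, and a fixed set. Other genes were named after their values were seen. Some genes that the rule names are not reported here. Members, lists and rules were chosen with earlier results of these data known. RefSeq windows matched 10973 and gene spans 13931 of the 14180 symbols.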

Additional observations from a re-analysis of the deposited data

How the results depend on the processing

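With the replicate number as a block, 1808 genes passed (978 higher, 830 lower), and with the block and only the groups of the contrast 3374 (1655 higher, 1719 lower). By voom on recovered reads 396 genes passed (208 higher, 188 lower), and the median of all genes shifted to -0.12. Leaving out 1 library left 323 to 700 genes, 145 to 364 higher and 178 to 336 lower. Without the second library of each group, added after the data were seen, 6 genes passed, 2 higher and 4 lower. Another pseudocount, other filters, median-ratio scaling and the contrast's groups alone kept these counts within 1.5 times. Of the 903 genes, the contrast's groups alone called 689 again (76.3%) and the other settings of this kind 813 to 895. Voom called 346 of them again (38.3%). The interaction gave 0 calls, 1 with no filter on low values, 2 when other groups were left out of the fit and 0 to 1 with 1 library left out. Gained genes numbered 70 to 107 and lost genes 76 to 135 with 1 library left out (107 without day 4 library 3, 135 without day 0 library 1). Those counts could not fall, since every library of a day must meet the level. The Suz12 shares called in either direction stayed within their intervals with gene spans at 0 kb and with starts at 1 kb. The separate shares were not checked in this way. By starts, 7.14% of 28 ES cell genes and 6.25% of 16 day 4 genes rose, and 0% of either fell, on sets too small to compare. Over 945 settings of 63 named genes, 865 stayed on their side of the threshold, 60 lost the call and 20 gained it. In 0 did a gene with a call in either fit change sign. Some genes called in neither fit did, as Suz12 from -0.06 to 0.25 without day 4 library 1. The cause of the differences between settings was not tested. Depth limits genes near 0.5 RPKM, above all in the second libraries.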
